A study of Mus musculus with 17 samples.

Results

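The enzymes that commit carbon to glucose were followed in mouse kidney cortex. They were 7 of the 48795 genes in a table of RNA sequencing read counts, found by gene name: Pck1, Pck2, G6pc, G6pc3, Fbp1, Fbp2 and Pcx. Each was counted in all 17 samples. WT cortices (n = 5) came from wild-type mice. GCERAd cortices (n = 5) came from Ggt/CreER; ATF4 fl/fl mice, in which a part of the Ggt1 promoter drives a tamoxifen-inducible Cre recombinase in proximal tubules, and which had received tamoxifen at 6 weeks of age on 2 days to delete the transcription factor ATF4 there. TRACK cortices (n = 3) came from a transgenic model of kidney cancer, and GCERAdT cortices (n = 4) from TRACK mice with the ATF4 knockout. The study's methods describe a fast of 16 h in metabolic cages before tissue collection, a month after the first injection. The study reports that WT mice were placed in metabolic cages too. The transgene, the age, any fast and any tamoxifen treatment of TRACK and GCERAdT mice are not given in the sources used here. Nor is it given whether WT mice carried Cre or received tamoxifen.

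Kidney and liver are the organs that release newly made glucose into the blood, and in the kidney this takes place in the proximal tubule, mainly from lactate, glutamine and glycerol. Pyruvate carboxylase (Pcx) and phosphoenolpyruvate carboxykinase (Pck1 in the cytosol, Pck2 in mitochondria) bypass the pyruvate kinase step, fructose-1,6-bisphosphatase (Fbp1, and the muscle form Fbp2) bypasses phosphofructokinase, and glucose-6-phosphatase (G6pc, and the widely expressed form G6pc3) frees glucose in the endoplasmic reticulum. Fasting and acidosis are known to raise renal Pck1, and glucagon, glucocorticoids and low insulin to raise hepatic Pck1 and G6pc.

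Reads on genes totalled 53688512 to 71364561 per sample, and values are given as CPM, the standard read count scaled to library size (here by TMM), or as FPKM (CPM per 1 kb of merged exons) where genes are compared with each other. Markers of proximal tubule were abundant in every sample, with a summed level of 14140 to 16030 CPM in WT, 19100 to 24420 in GCERAd, 10350 to 12590 in TRACK and 10970 to 12430 in GCERAdT over a list of 12 genes, with Slc27a2 highest in WT, TRACK and GCERAdT and Acsm2 in GCERAd. Those of thick ascending limb and distal tubule summed to 6285 to 8590 CPM in WT, 4135 to 5180 in GCERAd, 3980 to 6674 in TRACK and 4858 to 5284 in GCERAdT. Atf4 itself had 84.8 ± 10.1 CPM in WT, 64.6 ± 8.91 in GCERAd, 83.6 ± 8.54 in TRACK and 93.3 ± 9.58 in GCERAdT (SD), so that it fell in GCERAd against WT (log2 fold change -0.38, edgeR adjusted p = 0.0218) and had a higher mean in GCERAdT than in TRACK (0.17, adjusted p = 0.367). Gene-level reads resolve neither single exons of Atf4 nor single cell types of the cortex, so this level does not check the deletion, and GCERAdT names the samples as labelled. All WT samples had Xist (147 to 422 CPM) and no count of Ddx3y, Eif2s3y or Uty. Kdm5d, also Y-linked, had 0.308 CPM in WT 2 and no count in the other WT samples. Every sample of the other groups had all of these Y-linked transcripts. In these groups Xist was at 6.06 CPM in GCERAd 1 and at most 0.695 CPM in the other samples. WT samples thus read as female and all others as male. Sex, and whatever follows this pattern, cannot be told apart from the genotype in comparisons with WT. The share of counts on processed pseudogenes split the libraries into kind A (0.032% to 0.038%, n = 8) and kind B (0.0574% to 0.0784%, n = 9), with all TRACK samples in kind B. GCERAd 4 and 5 stood apart from GCERAd 1, 2 and 3: their profiles correlated at r = 0.994 with each other and at 0.967 to 0.979 with the other 3 (log2 CPM over 12208 genes). With the TRACK samples, GCERAd 4 and 5 correlated at 0.966 to 0.974, much as with their own group. For GCERAd 1, 2 and 3 the correlation with TRACK was 0.933 to 0.953. The extract protocol names 3 to 4 mice per cohort, so some of the 5 WT and 5 GCERAd libraries may share a mouse, and p-values measure the spread between these samples. In bulk cortex, fewer proximal tubule cells and less RNA per cell cannot be told apart.

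RefSeq start sites were at hand for all 7 genes (GRCm38.p6, with 2 for Pcx). The 250 bases before and 50 after each were searched on both strands for the half-site of the cAMP response element (TGACG), the core of the element at which ATF4 pairs with C/EBP proteins (TGATGNAA, where N is any base) and the TATA box (TATAAA). The 4 genes below held a match, and the 150 bases before the start site are shown 5′ to 3′ on the strand of the gene with the matches in capitals, so that the letters found can be seen in place. The outermost annotated start of Pck1 and Fbp2 lies inside the stretch shown, and that of G6pc just before it.
Pck1 promoter (chr2:173152923-173153072, plus strand): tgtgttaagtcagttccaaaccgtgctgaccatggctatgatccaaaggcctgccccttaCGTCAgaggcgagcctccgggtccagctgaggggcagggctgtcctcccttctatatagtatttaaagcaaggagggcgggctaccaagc
Pck2 promoter (chr14:55540116-55540265, plus strand): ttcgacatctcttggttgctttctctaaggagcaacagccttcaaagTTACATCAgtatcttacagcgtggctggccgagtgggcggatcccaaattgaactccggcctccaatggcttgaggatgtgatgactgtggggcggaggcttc
G6pc promoter (chr11:101367566-101367715, plus strand): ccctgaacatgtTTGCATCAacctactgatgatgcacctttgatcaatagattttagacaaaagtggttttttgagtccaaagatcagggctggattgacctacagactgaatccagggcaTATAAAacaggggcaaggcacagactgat
Fbp2 promoter (chr13:62858401-62858550, minus strand): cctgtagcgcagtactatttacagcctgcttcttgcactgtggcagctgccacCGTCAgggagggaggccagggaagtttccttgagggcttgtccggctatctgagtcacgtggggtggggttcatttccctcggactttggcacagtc
The capitals in Pck1 (-90 to -86 from the start site) and in Fbp2 (-97 to -93) are the half-site TGACG read on the other strand. Those in Pck2 (-103 to -96) and the first run in G6pc (-138 to -131) are the TGATGNAA core read on the other strand, and the second run in G6pc (-29 to -24) is TATAAA. None of these strings was in the windows of Fbp1, G6pc3 or Pcx. Among 32851 promoters of this length, 20.8% held TGACG, 3.97% held TGATGNAA and 13.6% held TATAAA, on either strand. A match is a string of letters and was not tested for binding.

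Cortical Pck1, the cytosolic enzyme that makes phosphoenolpyruvate (ENSMUSG00000027513, GRCm38 chr2:173153048-173159273), was the most abundant of the 7 transcripts per length in the mean of every group, with 730 ± 151 FPKM in WT (SD, n = 5). In GCERAd 1, 2 and 3, however, Pck1 had 281, 398 and 359 FPKM, below Fbp1 at 538, 610 and 645 FPKM. In WT Pck1 had 3083, 2797, 2711, 1855 and 2066 CPM. In GCERAd 1 to 5 it had 964, 1363, 1232, 8443 and 7972 CPM, so that samples 1, 2 and 3 lay below every WT value while samples 4 and 5 lay above every WT value. In TRACK it had 8863, 8394 and 5580 CPM and in GCERAdT 6290, 5693, 5061 and 5721 CPM, all above the WT range, with the lowest TRACK sample inside the GCERAdT range. The order of means was TRACK (7612 ± 1780), GCERAdT (5691 ± 502), GCERAd (3995 ± 3850) and WT (2503 ± 519), and each neighbouring pair in it overlapped.

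Pyruvate carboxylase, which makes the oxaloacetate that Pck1 uses (Pcx, ENSMUSG00000024892, chr19:4510472-4621752), was the steadiest of the 7 in WT, with 535, 486, 513, 479 and 488 CPM. GCERAd 1 to 5 had 572, 692, 594, 1582 and 1668 CPM, every one above the WT range. TRACK had 1530, 1369 and 1359 CPM, and GCERAdT 1046, 930, 790 and 1242 CPM, so these groups did not overlap with each other or with WT. Pcx overlaps Lrfn4 on the opposite strand, and the strand setting of the counting is not given in the sources used here.

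The catalytic subunit of glucose-6-phosphatase, the last step to free glucose (G6pc, ENSMUSG00000078650, chr11:101367561-101377903), had 415, 424, 297, 348 and 353 CPM in WT. GCERAd 1 to 5 had 283, 411, 415, 662 and 715 CPM, again with samples 4 and 5 on top. TRACK was tight at 816, 778 and 803 CPM, above all other samples of the series, and GCERAdT had 451, 403, 424 and 600 CPM. Its widely expressed relative G6pc3 (ENSMUSG00000034793, chr11:102189620-102194081) stayed between 33.1 and 48.6 CPM over all samples, with means of 40.1 ± 3.84 in WT, 42.8 ± 5.02 in GCERAd, 39.9 ± 6.02 in TRACK and 37.1 ± 3.93 in GCERAdT. It was the only member in which GCERAd 4 and 5 were not the 2 highest of their group.

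The main bisphosphatase Fbp1 (ENSMUSG00000069805, chr13:62864753-62888282) varied least among the abundant members. It had 988, 1028, 1042, 899 and 874 CPM in WT, 915, 1038, 1098, 1387 and 1555 in GCERAd 1 to 5, 1531, 1541 and 1285 in TRACK, and 1295, 1257, 1293 and 1439 in GCERAdT. Fbp2 (ENSMUSG00000021456, chr13:62836877-62858422), known as the form of muscle, was highest in WT. It had 31, 29.1, 36.8, 29.3 and 25.8 CPM in WT, and 14.1, 13.6, 14.4, 27.3 and 23.7 CPM in GCERAd 1 to 5, where sample 4 alone reached the WT range. TRACK had 14.7, 10.4 and 23.7 CPM and GCERAdT 13.5, 14.5, 12.8 and 16 CPM, all below WT. The skeletal muscle markers Myh2 and Myh4 were at 0 in every sample and Ckm was at 0.0695 CPM or less, while Myh1 had 3.38 to 10.4 CPM in WT and at most 0.11 CPM elsewhere. The part of Myh1-expressing cells in the WT level of Fbp2 was not tested.

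Mitochondrial Pck2 (ENSMUSG00000040618, chr14:55540266-55551242) was a minor transcript in this tissue, with 2.14 ± 0.268 FPKM in WT. It had 17.4, 19, 17.5, 16.5 and 13.3 CPM in WT and 14.2, 12.2, 12.9, 19.1 and 16.6 in GCERAd 1 to 5, which overlapped. TRACK had 44.7, 41.2 and 35.3 CPM and GCERAdT 31, 32.4, 29.1 and 38.1 CPM, so that both groups with the TRACK background lay above all WT and GCERAd samples. Pck2 overlaps an antisense gene, Gm10876, which was not used here.

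**Figure D1:**
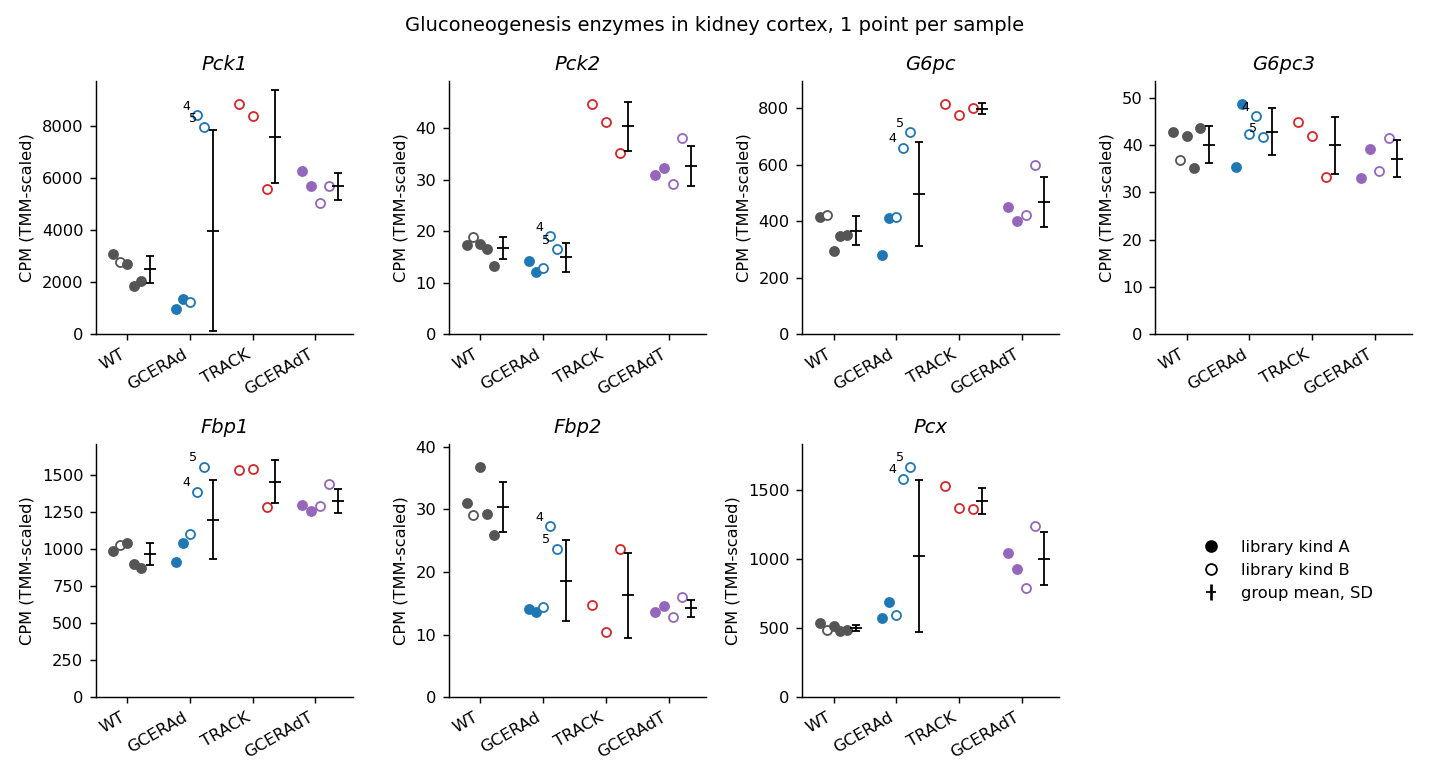
CPM (linear axes from 0) of the 7 enzymes in each of the 17 samples by group, filled for library kind A and open for kind B, with the group mean and SD in black and GCERAd 4 and 5 numbered. Pck1 in GCERAd splits into 964 to 1363 CPM in samples 1 to 3 and 7972 to 8443 CPM in samples 4 and 5, whereas Pck2 separates both TRACK groups from the rest.

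The pairs of relatives were compared per length within each sample. Pck2 amounted to 0.301% ± 0.0536 of Pck1 in WT, 0.338% ± 0.241 in GCERAd, 0.238% ± 0.0343 in TRACK and 0.253% ± 0.0311 in GCERAdT (SD of FPKM ratios). In GCERAd the ratio ran from 0.0912% to 0.648%, as Pck1 but not Pck2 differed widely between these samples. Fbp2 amounted to 3.28% to 4.09% of Fbp1 in WT, above 1.51% to 2.28% in GCERAd, 0.778% to 2.14% in TRACK and 1.14% to 1.34% in GCERAdT. G6pc3 amounted to 12.1% ± 2.33 of G6pc in WT, 10.3% ± 3.21 in GCERAd, 5.42% ± 0.816 in TRACK and 8.72% ± 1.34 in GCERAdT. Of the summed FPKM of the 7 genes, Pck1 made up 45.4% in WT, 40.8% in GCERAd (25.9% to 62.7%), 58.9% in TRACK and 57.8% in GCERAdT, and Fbp1 made up 35.8%, 37.4%, 23% and 27.1%. No stretch of 51 bases, the stated length of a read, was shared between transcripts of any pair of the 7 genes.

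**Figure D2:**
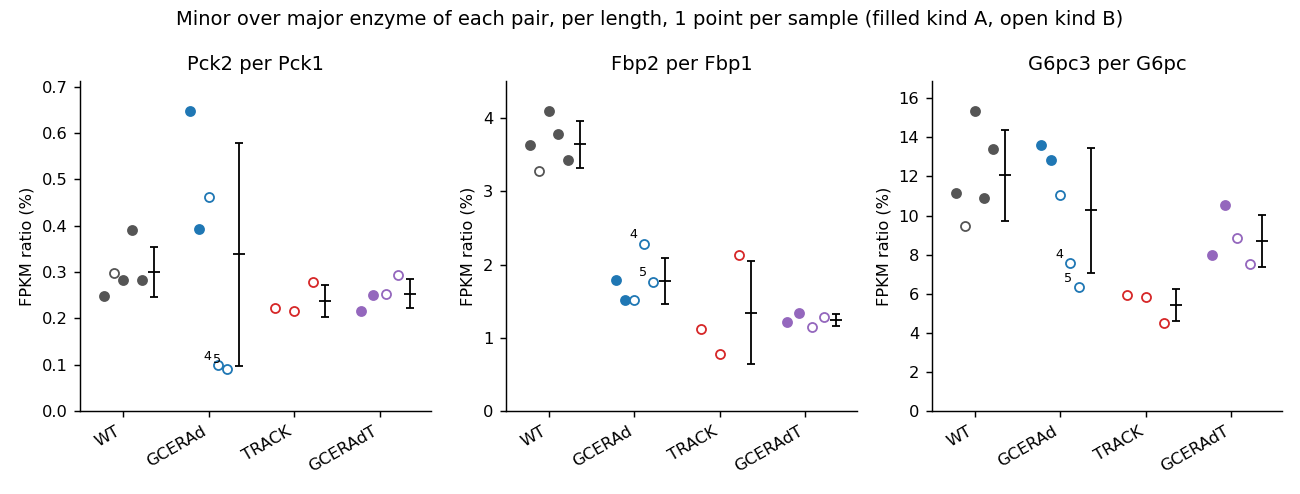
FPKM of the minor enzyme as a percentage of the major one in each sample (linear axes from 0), filled for library kind A and open for kind B, with group mean and SD. All 5 WT samples lie at 3.28% or more for Fbp2 over Fbp1, and every other sample lies at 2.28% or less.

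The knockout was first compared in otherwise wild-type mice, GCERAd against WT, groups that also differed in the Xist pattern. Pcx rose and Fbp2 fell, and the other 5 enzymes did not pass the test. Pcx was 2.06-fold higher (log2 fold change 1.04, SE 0.3, edgeR adjusted p = 0.0227), and the groups did not overlap. Fbp2 was at 0.618 of WT (log2 fold change -0.70, SE 0.2, edgeR adjusted p = 0.0225), with overlapping groups. Thus 2 of 7 members were called, beside 27.6% of all 11581 genes tested, with 1 higher (14.1% of all genes) and 1 lower (13.5%), and 1 member did not overlap, beside 20.2% of genes. G6pc (log2 fold change 0.45, 95% interval -0.04 to 0.94) and Fbp1 (0.32, 0.02 to 0.63) did not pass (edgeR adjusted p = 0.16 and 0.105). For Pck1 the interval of -0.59 to 1.96 left both directions within reach.

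Leaving out GCERAd 4 and 5, an alternative chosen after their values were seen, turned Pck1 round. With WT against GCERAd 1, 2 and 3, Pck1 fell by 1.06 on the log2 scale (SE 0.18, edgeR adjusted p = 0.00132), Pck2 fell by 0.34 (adjusted p = 0.0495) and Fbp2 fell by 1.1 (adjusted p = 4.2e-05), while Pcx rose by 0.32 (adjusted p = 0.0104), so that 4 members were called. Within library kind A (WT 1, 3, 4, 5 and GCERAd 1, 2) the values were -1.05 for Pck1, -1.14 for Fbp2 and 0.34 for Pcx (edgeR adjusted p = 0.00836, 0.000563 and 0.026). With the library kind as a covariate Pcx did not pass (0.70, adjusted p = 0.112) and Fbp2 did (-0.88, adjusted p = 0.00911). With the possible repeat libraries (WT 1 and 2, GCERAd 2 and 3) summed, Fbp2 did not pass (-0.61, adjusted p = 0.079) and Pcx did (1.18, adjusted p = 0.0324). Neither Pcx without WT 5 or GCERAd 4 nor Fbp2 without WT 3 or GCERAd 3 passed, with highest adjusted p values of 0.0512 and 0.0563 (edgeR). GCERAd 3, of the same library kind as samples 4 and 5, had the low Pck1 level of samples 1 and 2. The summed level of 6 markers of proximal tubule segment 3 moved with this split. It was 3906 to 3940 CPM in GCERAd 1 to 3, 2200 and 2259 CPM in GCERAd 5 and 4, and 1500 to 2328 CPM in WT. In GCERAd against WT these markers went different ways. Atp11a (log2 fold change 1.58), Slc7a13 (9.78) and Slc22a30 (5.2) rose, Slc7a12 fell (-2.8), and Slc5a1 (-0.05) and Slc3a1 (0.02) did not pass (edgeR). Within GCERAd, Atp11a ran from 866 to 1937 CPM and Slc7a13 from 323 to 1026 CPM, but Slc3a1 only from 773 to 939 CPM. The study reports Slc7a13 and Slc22a30 as higher and Slc7a12 as lower with the ATF4 deletion, so these are not markers of the segment alone. Adipocytes also express Pck1. Their marker Adipoq had 0.031, 4.91, 3.86, 0 and 0.103 CPM in GCERAd 1 to 5, and the 8 adipocyte markers, most of them Pnpla2 by level, summed to 142, 198, 182, 239 and 235 CPM, beside 191 to 238 CPM in WT. The 5 hepatocyte markers summed to 1316 to 2498 CPM in GCERAd and 197 to 325 CPM in WT, led by Cyp2e1, which proximal tubules also express, while Alb was at 5.58 to 11.4 CPM in GCERAd and 11.4 to 44.4 CPM in WT. The part of these cells and segments in the levels of the enzymes was not tested.

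**Figure D3:**
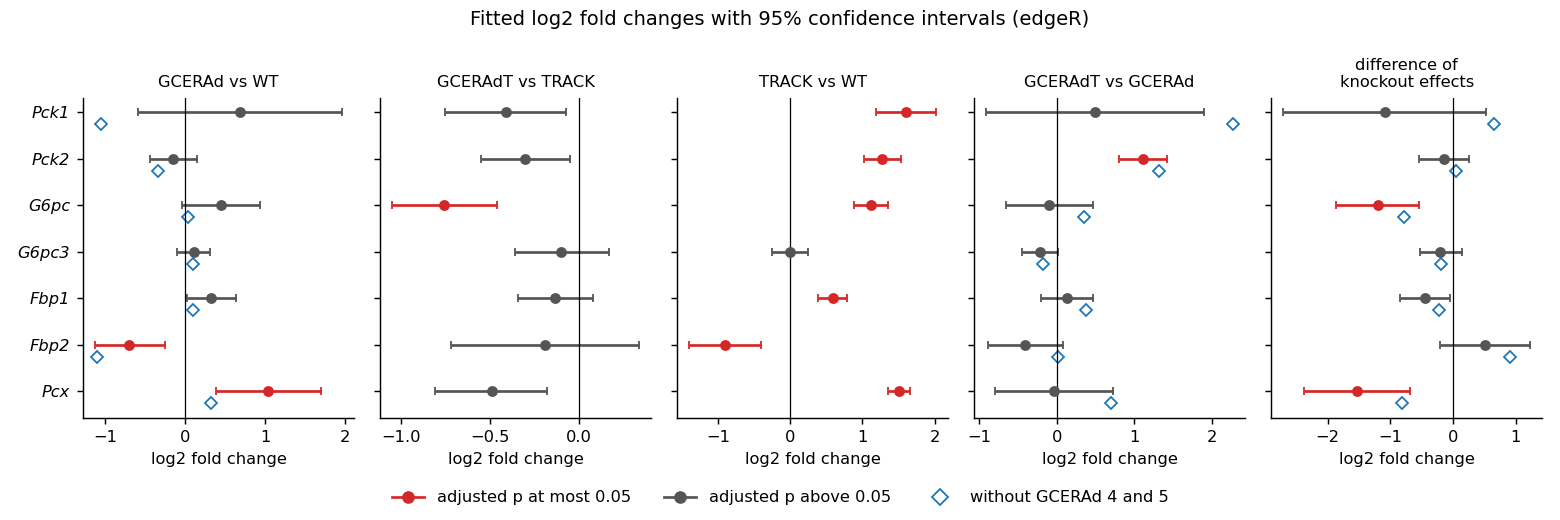
Fitted log2 fold change (horizontal axis, scales differ) with its 95% interval for each enzyme in the 5 comparisons, red where the edgeR adjusted p is at most 0.05, with open diamonds for the value without GCERAd 4 and 5. In GCERAd vs WT the diamond of Pck1 lies at -1.06 and its main value at 0.69, and in TRACK vs WT 6 of the 7 points are red.

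Samples labelled as knockout were then compared within the cancer model, GCERAdT against TRACK. Both groups carried Y-linked transcripts and no more than 0.695 CPM of Xist. G6pc fell and no other enzyme passed the test. G6pc was at 0.591 of the TRACK level (log2 fold change -0.76, SE 0.13, edgeR adjusted p = 0.0101), the highest GCERAdT sample (600 CPM) lay below the lowest TRACK sample (778 CPM), and it remained called with each sample left out in turn (log2 fold change -0.90 to -0.70). That was 1 of 7 members, beside 7.09% of 11928 genes tested (2.81% higher and 4.28% lower), and 2 members did not overlap, G6pc and Pcx, beside 23.1% of genes. Within library kind B (3 TRACK, 2 GCERAdT) G6pc was at -0.64 (adjusted p = 0.0963), and with kind as a covariate at -0.63 (edgeR adjusted p = 0.0477), and in a fit of all 17 samples, which share 1 estimate of the spread, it was at -0.77 (adjusted p = 0.0619). Pcx was at 0.71 of TRACK (log2 fold change -0.49, SE 0.14) and missed the threshold (edgeR adjusted p = 0.0638), which it passed with DESeq2 (adjusted p = 0.00417). Pck1 (-0.41, 95% interval -0.75 to -0.07, adjusted p = 0.129) and Pck2 (-0.30, -0.55 to -0.05, adjusted p = 0.135) had intervals below 0 but did not pass over all genes (edgeR). Fbp1 (-0.13), Fbp2 (-0.19) and G6pc3 (-0.10) had intervals that held 0. Of 5 tested adipocyte markers 4 were lower in GCERAdT (edgeR), and the list summed to 184 to 199 CPM there and 266 to 389 CPM in TRACK. Adipoq and Cfd of this list were high in TRACK 1 (7.95 and 50.9 CPM), with at most 0.0981 and 0.523 CPM in TRACK 2 and 3. Pnpla2, the highest of the list, had 214 to 232 CPM in TRACK and 112 to 152 CPM in GCERAdT. Of 4 tested injury markers 3 were lower and 1, Havcr1, was higher (0.82, edgeR adjusted p = 0.0358), with sums of 42.4 to 51.5 and 35.5 to 72.5 CPM. Their part in the level of G6pc was not tested.

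The difference between both contrasts, GCERAdT over TRACK minus GCERAd over WT, was tested in a fit of all 17 samples. It is named the difference of knockout effects here, as the groups are labelled. G6pc (log2 difference -1.20, SE 0.31, edgeR adjusted p = 0.00981) and Pcx (-1.53, SE 0.4, adjusted p = 0.0111) differed, with means above WT in GCERAd and below TRACK in GCERAdT. That was 2 of 7 members, both negative, beside 25.1% of 12208 genes tested (12.3% positive and 12.8% negative). Without GCERAd 4 and 5 the differences were -0.79 for G6pc and -0.82 for Pcx (edgeR adjusted p = 0.015 and 0.00215), and Fbp2 joined them (0.91, adjusted p = 0.0259). With the library kind as a covariate neither passed (-0.74, adjusted p = 0.076, and -1.09, adjusted p = 0.0982). This difference contains the WT samples and with them the Xist pattern, so sex and the knockout cannot be told apart in it.

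TRACK against WT, which shares its WT samples with the first comparison, was the comparison with the most members called. These groups also differed in the Xist pattern, so sex cannot be told apart from the cancer model here. Pck1 rose 3.05-fold (log2 fold change 1.61, SE 0.19, adjusted p = 0.00012), Pcx 2.84-fold (1.51, SE 0.07, adjusted p = 4.17e-07), Pck2 2.42-fold (1.27, SE 0.11, adjusted p = 2.44e-05), G6pc 2.18-fold (1.12, SE 0.11, adjusted p = 3.63e-05) and Fbp1 1.51-fold (0.59, SE 0.09, adjusted p = 0.000545), all by edgeR. Fbp2 fell to 0.536 of WT (-0.90, SE 0.23, edgeR adjusted p = 0.00899). G6pc3 had a 95% interval of -0.25 to 0.24 around 0.00. Thus 6 of 7 members were called, beside 45.6% of 11967 genes tested, 5 of them higher (23% of all genes) and 1 lower (22.6%). The same 6 did not overlap between the groups, beside 44.3% of genes, and all 6 were called with each sample left out in turn. Within library kind B, WT 2 was the only WT sample, so that the spread of WT was not measured there. The log2 fold changes against it were 1.45 for Pck1, 1.55 for Pcx, 1.09 for Pck2, 0.92 for G6pc, 0.50 for Fbp1 and -0.83 for Fbp2. With the library kind as a covariate Fbp2 did not pass (-0.84, edgeR adjusted p = 0.115). The proximal tubule marker sum was lower in TRACK than in WT, as given above. Of its 12 genes 2 were higher, 6 were lower and 4 did not pass (edgeR). The summed level of 5 tubule injury markers was 35.5 to 72.5 CPM in TRACK and 8.5 to 12.5 CPM in WT, and Havcr1 among them had 18.2 ± 5.2 CPM in TRACK and 0.222 ± 0.172 in WT. Adipoq was 7.95, 0.0703 and 0.0981 CPM in TRACK 1, 2 and 3, whose Pck1 was 8863, 8394 and 5580 CPM, and the adipocyte markers summed to 266 to 389 CPM in TRACK. The part of these in the levels of the enzymes was not tested.

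GCERAdT against GCERAd compared the cancer model among knockout mice, and shared its GCERAd samples with the comparison to WT. Pck2 was 2.16-fold higher in GCERAdT (log2 fold change 1.11, SE 0.14, edgeR adjusted p = 0.000514), without overlap and with each sample left out in turn (1.03 to 1.22). No other enzyme passed, so that 1 of 7 members was called, beside 19.2% of 11816 genes tested (9.39% higher and 9.79% lower), and 1 did not overlap, beside 19.3%. Pck1 had a wide interval of -0.91 to 1.9, as the GCERAdT values lay between the low and high GCERAd samples. With the mouse number of the labels as a replicate block, in which numbers 1 and 2 are also library kind A and 3 and 4 kind B, G6pc3 was also called (-0.22, edgeR adjusted p = 0.0354), among 3770 genes in place of 2266. Against GCERAd 1, 2 and 3 alone, 4 enzymes were higher in GCERAdT: Pck1 by 2.27, Pck2 by 1.32, Pcx by 0.7 and Fbp1 by 0.38 on the log2 scale (edgeR adjusted p = 3.08e-06, 3.35e-05, 0.00645 and 0.0124).

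The steps around the enzymes were described by lists of pathway genes, whose counts are read beside the shares of all genes called, 27.6% in GCERAd against WT, 7.09% in GCERAdT against TRACK, 45.6% in TRACK against WT and 19.2% in GCERAdT against GCERAd. Glucose 6-phosphate reaches G6pc through the transporter Slc37a4, and its levels were spread over the groups as those of G6pc were. It had 213 ± 23.6 CPM in WT, 264 ± 88.5 in GCERAd, 450 ± 31.8 in TRACK and 261 ± 57.1 in GCERAdT. It was higher in TRACK than in WT (log2 fold change 1.08, SE 0.1, edgeR adjusted p = 2.23e-05) and fell by 0.78 in GCERAdT against TRACK (SE 0.15, adjusted p = 0.0146), with a difference of knockout effects of -1.10 (adjusted p = 0.01). The list of glucose 6-phosphate transport and glucose exit holds 6 genes. Among them are the glucose uptake carriers Slc5a1 and Slc5a2 and the lactate transporter Slc5a12. In TRACK against WT 2 rose and 1 fell, the latter being Slc5a12 (-1.20, edgeR adjusted p = 6.15e-05). In GCERAdT against TRACK 1 rose and 2 fell, Slc5a1 (-0.59) and Slc37a4 (edgeR). In GCERAd against WT only Slc2a1, the widely expressed glucose transporter, passed among these 6, and it fell by 0.74 (adjusted p = 0.000293).

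Of 13 tested genes of the steps shared with glycolysis, 7 rose and 2 fell in TRACK against WT, among them Gpi1 (1.59, adjusted p = 1.42e-05) and Ldha (1.5, adjusted p = 4.09e-06), and in GCERAdT against GCERAd 7 rose and 1 fell (edgeR). Those called were 69.2% and 61.5% of the list. A list of the irreversible glycolytic steps and of pyruvate dehydrogenase and its kinases had 11 of 15 higher and 1 lower in TRACK against WT, with hexokinase Hk2 at 5.67 (SE 0.4, adjusted p = 5.59e-06) and the pyruvate dehydrogenase kinase Pdk4 at 3.65 (SE 0.27, adjusted p = 6.78e-06, edgeR). The kinases Pdk1, Pdk3 and Pdk4, which made up 3 of the 11, are known to inhibit pyruvate dehydrogenase and so to spare pyruvate, unlike the glycolytic enzymes on the list. In GCERAdT against GCERAd 8 of 16 rose, led by Hk2 (5.25) and the phosphofructokinase Pfkp (2.88, adjusted p = 1.39e-07, edgeR). In GCERAd against WT 3 rose and 4 fell, with Hk1 at -0.84 and the pyruvate kinase Pkm at -0.82 (edgeR adjusted p = 0.000519 and 0.000325), and without GCERAd 4 and 5 the counts were 1 and 9. In GCERAdT against TRACK 1 of 15 passed, Pfkfb3 (-0.56, adjusted p = 0.0313).

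Among the genes of substrate supply, the glycerol 3-phosphate dehydrogenases Gpd1 and Gpd2 were, like G6pc, highest in TRACK. Gpd1 had 633 ± 23.5 CPM in WT, 705 ± 366 in GCERAd, 1557 ± 228 in TRACK and 759 ± 158 in GCERAdT. Both rose in TRACK against WT (1.30 and 1.59, edgeR adjusted p = 4.34e-06 and 2.79e-06) and both fell in GCERAdT against TRACK (-1.03 and -0.94, adjusted p = 0.00557 and 0.00643). The monocarboxylate transporter Slc16a1 moved the other way there, and rose by 1.28 (adjusted p = 0.00511). Of 22 tested supply genes, 1 rose and 5 fell in GCERAdT against TRACK, 9 rose and 4 fell in TRACK against WT, 3 rose and 6 fell in GCERAdT against GCERAd, and 3 rose and 2 fell in GCERAd against WT (3 and 7 without GCERAd 4 and 5). These were 27.3%, 59.1%, 40.9% and 22.7% of the list. The sodium-coupled monocarboxylate transporter Slc5a8 rose by 0.84 in GCERAd against WT (SE 0.06, edgeR adjusted p = 2.48e-06). Its difference of knockout effects was -1.27 (edgeR adjusted p = 2.15e-07).

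Known regulators of the pathway were called about as often as all genes in the comparisons with WT. Of 30 tested, 4 rose and 4 fell in GCERAd against WT, 4 fell in GCERAdT against TRACK, and 6 rose and 7 fell in TRACK against WT, and of 29 tested, 4 fell in GCERAdT against GCERAd (edgeR). Those called were 26.7%, 13.3%, 43.3% and 13.8% of the regulators tested. The coactivator Ppargc1a, known to raise Pck1 and G6pc in liver, fell by 0.54 in TRACK against WT (adjusted p = 0.00466), and Cebpb rose by 1.37 (adjusted p = 0.000113). The insulin receptor substrate Irs2 rose by 0.94 in GCERAd against WT (adjusted p = 0.0021) and by 0.71 in TRACK against WT (adjusted p = 0.000174), and Sik1, a kinase induced by cAMP, fell by 0.84 in GCERAdT against TRACK (adjusted p = 0.0121, edgeR).

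Targets of ATF4 were also listed. In GCERAd against WT, 2 of 14 tested rose and 6 fell (1 and 7 without GCERAd 4 and 5), among them the amino acid transporter Slc7a5 (-1.09, SE 0.18, edgeR adjusted p = 0.0011). In TRACK against WT 14 of 20 rose and 2 fell, led by the pseudokinase Trib3 (3.93, SE 0.25, adjusted p = 3.1e-06), and in GCERAdT against GCERAd 12 of 19 rose, led by Trib3 (4.73) and Aldh18a1 (4.35). In GCERAdT against TRACK 1 of 20 passed, Chac1, which fell by 1.16 (adjusted p = 0.0436). Those called were 57.1%, 80%, 63.2% and 5% of the targets tested, in this order. Pck2, itself a known target of ATF4, had a log2 fold change of -0.30 in that comparison, beside a median of -0.03 over the list and 0.01 over all genes. The median over the list was -0.32 in GCERAd against WT, 0.79 in TRACK against WT and 1.23 in GCERAdT against GCERAd, where the medians over all genes were 0, -0.01 and 0.

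**Figure D4:**
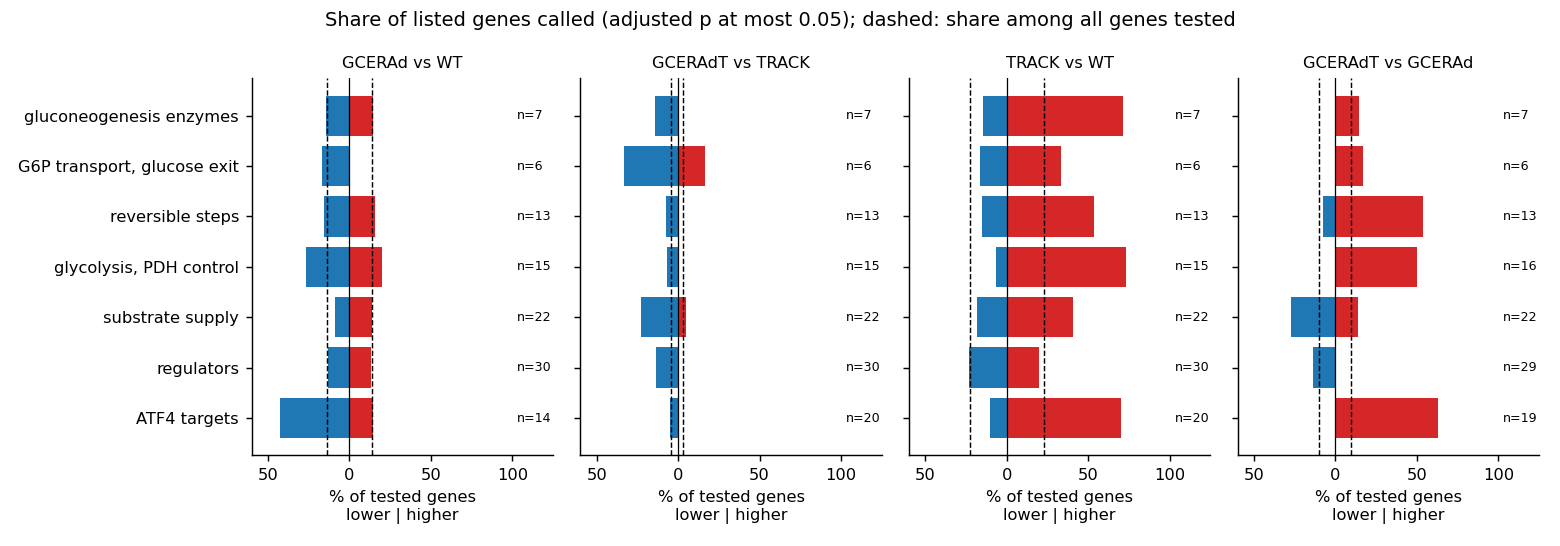
Share of tested genes of each list called higher (red, right) or lower (blue, left) at an edgeR adjusted p of at most 0.05 in 4 comparisons, with the number tested at the right and dashed lines for the share among all genes. In TRACK vs WT 5 of 7 gluconeogenesis enzymes and 11 of 15 genes of glycolysis and of pyruvate dehydrogenase (PDH) and its kinases are higher, and in GCERAd vs WT both bars of the enzymes lie near the dashed lines.

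Over the 17 samples the abundant enzymes varied together, which is a description since the samples fall into 4 groups. Pearson's r of log2 CPM was 0.935 between Fbp1 and Pcx, 0.892 between G6pc and Pcx, 0.876 between Pck1 and Fbp1, 0.838 between Pck1 and Pcx and 0.789 between Pck1 and G6pc. It was at most 0.162 between G6pc3 and any other member, and -0.41 between Fbp1 and Fbp2. Among 12208 genes, Slc37a4 was the most like G6pc (r = 0.978), followed by Lrg1 and Sra1. The genes most like Pck1 were the fatty acid omega-hydroxylase Cyp4a31 (r = 0.971), Pxmp4 and Tfcp2l1. In GCERAd 1 to 5, Cyp4a31 had 279, 358, 308, 1160 and 1270 CPM, the same split as Pck1. Most like Pcx were Gm15441 (r = 0.97), Hsp90ab1 and the lipid droplet gene Plin2, which had 64.5, 75.2, 71.2, 366 and 323 CPM in GCERAd 1 to 5. Most like Fbp1 were Acot12 (r = 0.956), Grhpr and Prcp. Pck2 was most like Asb11 (r = 0.984), 5033403H07Rik and Rasl12, G6pc3 like Akr7a5 (r = 0.901), Abcb8 and Sod1, and Fbp2 like Tmem37 (r = 0.89), Syngr1 and Abcb1a.

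**Figure D5:**
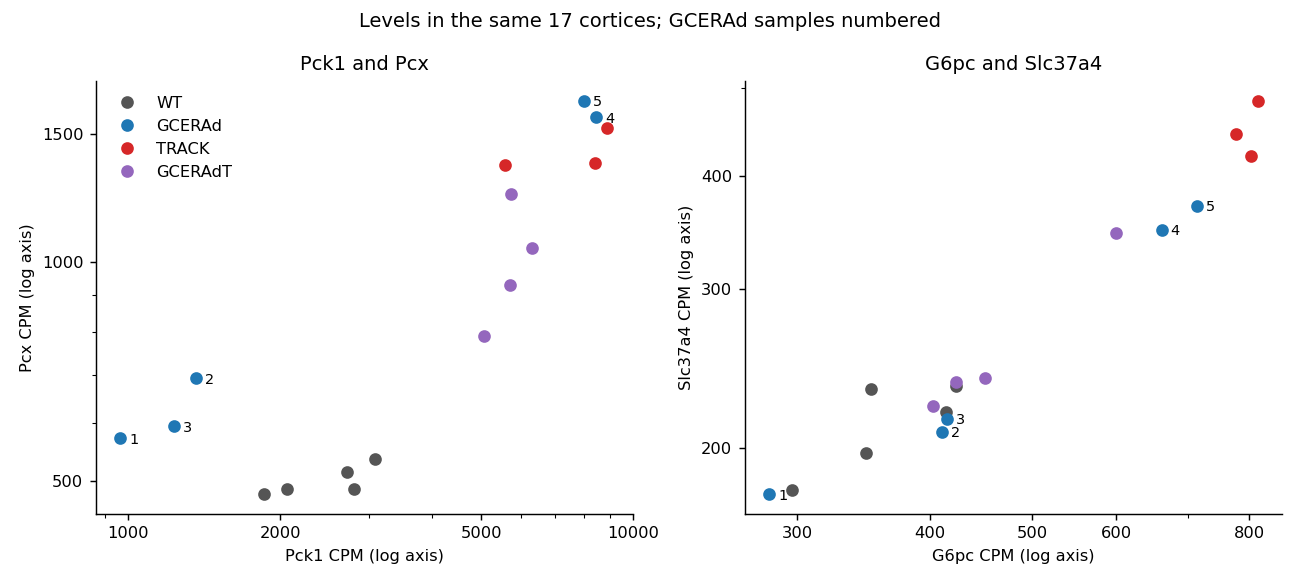
CPM of Pck1 against Pcx (left) and of G6pc against Slc37a4 (right) in the same 17 cortices, on log axes, coloured by group with the GCERAd samples numbered. GCERAd 4 and 5 lie within the TRACK range for Pck1 and above it for Pcx (1582 and 1668 CPM against 1359 to 1530), while GCERAd 1 to 3 lie to the left of all WT samples with 964 to 1363 CPM of Pck1.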

How the data were processed

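RNA was taken from kidney cortex of 17 mouse samples, and libraries were made with a stranded mRNA kit. The study's methods state paired reads of 51 bases. In its supplement the bases read per cluster differ between libraries, so read length may not have been the same in all. The authors demultiplexed with bcl2fastq 2.20, trimmed with Cutadapt, aligned to GRCm38 with STAR and counted reads per gene with HTSeq-count, and the deposited values are raw counts with no normalization. Which annotation release was used, and whether HTSeq-count used strand, is not given in the sources used here. The study tested pairs of groups with DESeq2 on genes of at least 1 FPKM. Here the counts of the groups compared were fitted with edgeR 4.0.16 (TMM scaling, quasi-likelihood test, R 4.3.3) on genes whose mean in at least 1 of the groups reached 1 FPKM, with Benjamini-Hochberg adjustment over all genes tested and a threshold of 0.05. The difference of knockout effects used all samples. Standard errors were derived from the log2 fold change and its F statistic. FPKM used merged exon lengths of GENCODE M21, which were found for 48435 of 48795 genes. Correlations used log2(CPM + 0.5). Promoters were read from RefSeq (GRCm38.p6).

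Groups were taken from the labels. All 7 members passed the FPKM minimum in every comparison. The members and lists were chosen with earlier results of these data known. In each list and comparison the genes named were taken from the called genes with the 2 largest increases and 2 largest decreases, not all of which are printed, plus the 3 genes most like each member and the highest gene of a marker list. Adipoq, Alb, Cfd, Ckm, Havcr1, Myh2, Myh4, Pdk1, Pdk3, Slc3a1, Slc5a1, Slc5a2, Slc7a12, Slc7a13 and Slc22a30 were named after their values were seen. The fits were checked on simulated counts with known changes. DESeq2 1.42.0, RLE scaling, other FPKM minimums, a replicate block, all samples in 1 fit, library kind, summed repeats and each sample left out were tried as alternatives. Within GCERAdT and GCERAd, samples with the same number deviated together (correlations 0.43 to 0.58 over 4 pairs), which rests on the data and not on the labels, and the numbers follow library kind there. Deviations from group and kind were correlated between libraries of the same group. Across kinds the highest value was 0.37 for GCERAd 2 and 3, 0.01 for GCERAdT 2 and 3, and -0.1 for WT 1 and 2. So only the GCERAd pair was clearly above 0. These pairs may be repeats of 1 mouse, which a test against sampling noise cannot settle for libraries prepared apart. They were counted as separate mice, as labelled, and summed in an alternative, so the main tests may count a mouse more than once. The study's supplement lists library names without tying them to these samples. There 2 names repeat another name with a letter added, and 2 have a different prefix. Figures were drawn with matplotlib 3.10.9.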

Additional observations from a re-analysis of the deposited data

Results flagged for a closer look

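For G6pc and Pcx, GCERAdT over TRACK differed from GCERAd over WT, by the test of the difference itself. GCERAd and WT also differ in the Xist pattern, so sex and the knockout cannot be told apart in this difference. For G6pc the log2 difference was -1.20 (SE 0.31, edgeR adjusted p = 0.00981), made of 0.45 in GCERAd against WT and -0.76 in GCERAdT against TRACK. For Pcx it was -1.53 (SE 0.4, adjusted p = 0.0111), made of 1.04 and -0.49. Both were called with each of the 17 samples left out in turn (-1.35 to -1.03 and -1.68 to -1.28). With the library kind as a covariate neither passed (G6pc -0.74, adjusted p = 0.076, and Pcx -1.09, adjusted p = 0.0982), nor did either within kind B (-1.16 and -1.91, adjusted p = 0.125 and 0.139). GCERAd 4 and 5, which had the highest G6pc and Pcx of their group, and the Xist pattern of WT enter this difference, and their part in it beyond the values given above was not tested. Dixon's criterion for a single far sample marked none in the groups of 4 and 5 samples, but it cannot mark 2 neighbouring high samples such as GCERAd 4 and 5.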

How the results depend on the processing

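Of the recomputed log2 fold changes of members, 635 kept their direction and side of the threshold, 32 changed sign, 16 lost and 15 gained the call. The cause was not tested for those below. In GCERAd vs WT, the replicate block gave 2106 genes and 1 member (Pcx 0.87), summed repeats 1 member (Fbp2 -0.61), the kind covariate 1 member (Pck1 -0.38, Pcx 0.7), and kind A only Pck1 -1.05 and G6pc -0.01. Without GCERAd 4 and 5, 4 members were called (Pck1 -1.06, Pck2 -0.34). In GCERAdT vs TRACK, DESeq2 gave 1562 genes and 3 members (Pck1 -0.42, Pcx -0.5), no FPKM minimum 2 members (Pcx -0.51), the replicate block 2 (Pcx -0.62), all samples in 1 fit 0 (G6pc -0.77), GCERAdT 2 and 3 summed 498 genes, the kind covariate 462, and kind B only 221 genes and 0 members (G6pc -0.64). In TRACK vs WT, an FPKM minimum of 5 gave 3438 genes, the block 3431, the kind covariate 2776 (G6pc3 0.11, Fbp2 -0.84) and kind B 1475 (G6pc3 0.11, Fbp1 0.5, Fbp2 -0.83), and G6pc3 was 0.00 with DESeq2 and RLE. In GCERAdT vs GCERAd, an FPKM minimum of 5 left Pck2 untested and 0 members called (Pcx 0.01). There the block gave 3770 genes and 2 members (G6pc 0.12, G6pc3 -0.22, Pcx 0.33), GCERAdT 2 and 3 summed Pcx 0.03, the kind covariate G6pc 0.00 and Pcx 0.1, kind B 349 genes and Pck1 -0.14, and leaving out GCERAd 4 and 5 gave 4 members (Pck1 2.27, G6pc 0.35, Fbp1 0.38, Fbp2 0.02, Pcx 0.7). For the difference, an FPKM minimum of 5 gave 2041 genes, the kind covariate 0 members (Pck1 0.04, Pck2 0.04, G6pc -0.74, Pcx -1.09), kind B 452 genes and 0 members (G6pc -1.16, Pcx -1.91), and leaving out GCERAd 4 and 5 Pck1 0.65, Pck2 0.04 and Fbp2 0.91. The block changed no other call. Mouse numbers did not pair the samples outside GCERAdT vs GCERAd (correlations -0.64 to 0.16).

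With 1 sample left out, members called ranged from 1 to 4 in GCERAd vs WT (Fbp1 0.21 to 0.41, Fbp2 -0.87 to -0.6, G6pc 0.28 to 0.6, Pcx 0.79 to 1.19), and Fbp1 and G6pc were called without GCERAd 1. In GCERAdT vs TRACK they ranged from 1 to 3 and genes from 379 to 1424 (Fbp2 -0.43 to 0.19, Pck1 -0.59 to -0.29, Pck2 -0.38 to -0.22, Pcx -0.61 to -0.4), with Pck1 called without TRACK 3 and Pck2 and Pcx without GCERAdT 4. Genes in GCERAdT vs GCERAd ranged from 1427 (without GCERAdT 2) to 2336 (G6pc -0.25 to 0.08, Pcx -0.19 to 0.22). G6pc3 ranged from -0.1 to 0.12 in TRACK vs WT, and Fbp1 from -0.54 to -0.33 in the difference. The leaving out of GCERAd 4 and 5 and the summing of GCERAdT 2 and 3 were chosen after seeing the data. The least counted member, Fbp2, had at least 589 counts per sample, so the spread between samples, not counting error, set the precision.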
